A study of Rattus norvegicus with 4 samples.

Results

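Mitochondrial ribosomal protein genes are the nuclear genes whose products, made in the cytosol and imported, form the protein part of the ribosome inside mitochondria. They were taken by name, as every row of the gene table whose symbol is Mrpl or Mrps followed by a number and at most 1 letter. This took 71 of 14410 genes. The rule used names and no measured value, but the set was chosen with earlier results of these data known. The table came from RNA-seq of CG4 cells, a rat oligodendroglial line that grows as progenitors in PDGF-AA and bFGF and can be driven towards oligodendrocytes, the glia that wrap axons of the brain and spinal cord in myelin. The ctrl group carried the retrovirus CAG-IRES-GFP, which gives GFP from the CAG promoter, and the Phf8oe group carried CAG-Phf8-IRES-GFP, which adds Phf8, a histone demethylase that acts on repressive methyl marks. Both groups were labelled wild type, were sorted for GFP and expanded, and were lysed after 3 days in SATO-containing medium, a differentiating condition. Each group held 2 biological replicates, and nothing in the labels says whether these came from separate transductions, so the p-values measure the spread between these libraries only.

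The mitochondrial ribosome makes the small set of proteins that the mitochondrial genome encodes, all of them hydrophobic subunits of the respiratory chain and of ATP synthase. Its small subunit binds the messenger RNA and reads the codons, and its large subunit joins the amino acids and releases the chain towards the inner membrane. Some of its proteins have homologues in bacterial ribosomes, and others are found only in mitochondria. Since the ribosomal RNAs are mitochondrial and the proteins nuclear, building the particle draws on both genomes, and laying down myelin is known as work that costs oligodendrocytes much energy.

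The promoters of 6 of these genes are shown because they cover the range of the results: Mrpl55 had the largest fold change, Mrps27, Mrpl48, Mrps18a and Mrpl23 rose and carry a motif for ETS factors, and Mrpl44 lay slightly lower and carries the core motif of nuclear respiratory factor 1 (NRF1). They were chosen after the values were seen. Each line gives the last 150 bases before the annotated start in RefSeq on build GRCr8, 5′ to 3′ on the strand of the gene. Capitals mark any of the 6 motifs searched, on either strand: CCGGAAG for ETS, GCATGCG for NRF1, AAGATGG for YY1, CACGTG for the E-box, CCAAT, and GGGCGG for Sp1. The NRF1 motif overlaps its own reverse complement in the palindrome of Mrpl44. GRCr8 is not the build of the gene counts.
Mrpl55, chr10:44488103-44488252, plus strand: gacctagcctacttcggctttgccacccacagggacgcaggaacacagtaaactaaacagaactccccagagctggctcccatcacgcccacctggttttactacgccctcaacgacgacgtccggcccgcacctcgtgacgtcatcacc
Mrps27, chr2:32474054-32474203, plus strand: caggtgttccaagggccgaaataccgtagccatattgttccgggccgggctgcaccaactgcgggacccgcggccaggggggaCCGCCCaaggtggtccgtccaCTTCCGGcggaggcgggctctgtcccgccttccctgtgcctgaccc
Mrpl23, chr1:207116780-207116929, plus strand: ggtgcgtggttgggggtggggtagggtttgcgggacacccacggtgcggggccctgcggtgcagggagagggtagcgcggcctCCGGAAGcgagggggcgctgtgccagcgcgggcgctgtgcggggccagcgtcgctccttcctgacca
Mrpl48, chr1:164351377-164351526, minus strand: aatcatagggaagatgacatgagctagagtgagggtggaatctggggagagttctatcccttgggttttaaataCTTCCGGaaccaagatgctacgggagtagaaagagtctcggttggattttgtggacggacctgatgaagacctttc
Mrps18a, chr9:22367381-22367530, minus strand: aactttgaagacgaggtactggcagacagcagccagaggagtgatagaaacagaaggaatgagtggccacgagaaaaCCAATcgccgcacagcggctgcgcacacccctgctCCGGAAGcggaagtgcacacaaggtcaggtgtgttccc
Mrpl44, chr9:88554900-88555049, plus strand: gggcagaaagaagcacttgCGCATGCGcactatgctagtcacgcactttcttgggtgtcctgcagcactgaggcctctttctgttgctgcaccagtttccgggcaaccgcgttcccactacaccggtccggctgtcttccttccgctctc
The ETS motif begins 46 bases before the start of Mrps27, 67 before that of Mrpl23, 76 before that of Mrpl48 and 38 before that of Mrps18a. None of the 6 motifs is in the stretch shown for Mrpl55.

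The deposited values are normalized counts: reads per gene scaled to make the libraries comparable and then rounded. They summed to between 39945215 and 41149255 in a library, while the reads behind them were estimated as 28400000 to 47800000, fewest in Phf8oe replicate 2. Phf8 stood at 2026 and 2205 in ctrl replicates 1 and 2 and at 5650 and 10796 in Phf8oe replicates 1 and 2, a fold change of 3.69 that did not pass the test (limma, adjusted p = 0.0631) although the groups did not overlap. The 10 oligodendrocyte lineage markers were all measured, and their summed values were 494619 to 500029 in ctrl and 695074 to 758708 in Phf8oe. The progenitor markers Pdgfra and Cspg4 summed to 17300 to 18192 in ctrl and 9333 to 10282 in Phf8oe, almost all of it Pdgfra, with Cspg4 at 32 to 79. Of 5 astrocyte markers 4 were measured, with sums of 79273 to 80923 in ctrl and 10931 to 19760 in Phf8oe, of which Gfap gave 79141 to 80736 and 10834 to 19613 and the other 3 no more than 119 each. The 5 neuron markers summed to 17631 to 19795 and 14246 to 14395, the 2 measured of 5 microglia markers to 63 to 101 and 61 to 71, and the 1 measured of 5 fibroblast markers, Col1a1, stood at 437 to 454 and 121 to 164. Of the lineage markers Mbp gave most of the difference in the sum, with 184442 and 173338 in ctrl against 340486 and 308875 in Phf8oe, while Nkx2-2 was lower (11315 and 11281 against 9522 and 8409) and Myrf overlapped (25757 and 24300 against 30472 and 24017). Of the 3 low astrocyte markers Aldh1l1 was higher in Phf8oe (9 and 10 in ctrl against 32 and 44), and Slc1a2 and Gja1 were lower. Among neuron markers, Tubb3, Syt1 and Snap25 were lower in Phf8oe, while Map2 (6951 and 8226 against 8319 and 7550) and Rbfox3 overlapped. The sums of the lineage, progenitor, astrocyte and neuron markers and the values of Col1a1 differed between the groups without overlap. Their part in the results below was not tested.

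The comparison of Phf8oe with ctrl asks how these genes stood in differentiating cells given additional Phf8. The mitochondrial ribosomal protein genes lay higher in Phf8oe almost as a block, by a modest amount. Of the 71 genes 11 rose, which is 15.5%, and 0 fell, against 2.99% of all 14368 tested genes called higher and 4.65% called lower (7.64% in either direction). Over all 71, 69 had a fold change above 1, and the median log2 fold change was 0.28, or 1.22-fold, with a interquartile range of 0.20 to 0.35. Over all tested genes 50.4% lay higher and the median was 0.00, with a interquartile range of -0.22 to 0.22. In 63 of the 71 both Phf8oe values were above both ctrl values, in 0 both were below, and in 8 the groups overlapped, where 28.9% of all tested genes had both Phf8oe values on top. In RNA from a whole culture, a different share of cells of some kind and a different amount of RNA per cell cannot be told apart.

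Calls were made with limma on log2(value + 1) and a Benjamini-Hochberg adjusted p under 0.05 over all tested genes, which took 430 genes as higher and 668 as lower, or 608 and 589 when libraries were scaled by their upper quartile. At an unadjusted p under 0.05, 47 members lay higher and 0 lower, where 1826 and 1952 of all 14368 tested genes did. With limma-voom on the estimated reads, 12 members were called higher and 0 lower, and 497 and 730 of all tested genes. The number of calls varied with the libraries used and with the variance model: 0 members passed without ctrl replicate 1, 0 without ctrl replicate 2, 20 without Phf8oe replicate 1 and 9 without Phf8oe replicate 2, 7 passed without robust moderation and 0 without the trend of variance on level. A fit without 1 library assumes that the lone library of its group varies like the other group, and it moved the calls over all genes too, from 1098 to 14 and 160 without ctrl replicates 1 and 2 and to 1754 and 2103 without Phf8oe replicates 1 and 2, while the median log2 fold change of the members lay between 0.24 and 0.34. In each of these fits 68 to 70 of the 71 genes had a fold change above 1, and genes near 1 changed sides.

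Library by library, the members moved together. Relative to each gene's ctrl mean on the log2 scale, the median member stood at -0.01 and 0.01 in ctrl replicates 1 and 2, at 0.24 in Phf8oe replicate 1 and at 0.34 in Phf8oe replicate 2, while the median of all genes was between 0.00 and 0.01 in the same 4 libraries. The 2 Phf8oe libraries were not equal: 64 of the 71 genes were higher in Phf8oe replicate 2, which also had the higher Phf8 value and the fewest reads. The part of either in that difference was not tested. Summed over the 71 genes, the values came to 107103 and 109329 in the ctrl libraries and to 127667 and 137623 in the Phf8oe libraries, which is 0.266%, 0.274%, 0.31% and 0.342% of the library totals. Replicates of the typical member lay close together, with a median ratio between the 2 libraries of 1.05-fold in ctrl and 1.08-fold in Phf8oe. The widest gaps were 1.21-fold for Mrpl34 in ctrl and 1.26-fold for Mrpl12 in Phf8oe. Member values ran from 464 to 3972, and the reads behind a value were estimated as 374 to 3928, for which counting alone gives an error of 5.17% to 1.6%.

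**Figure D1:**
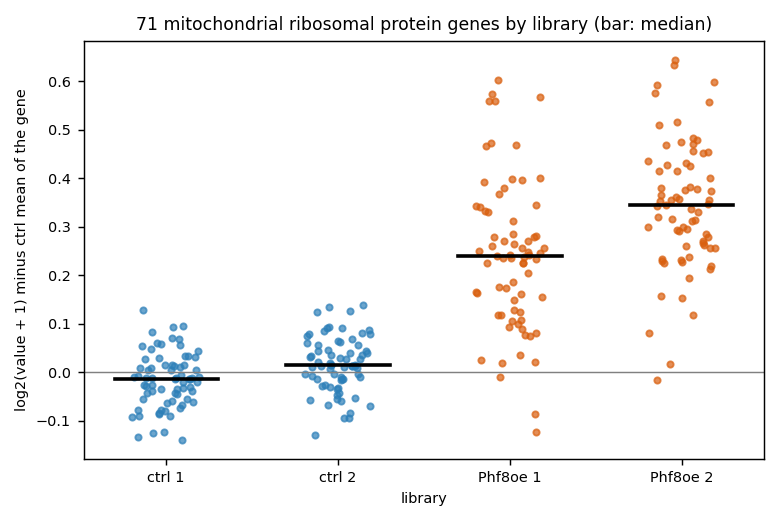
Each point is 1 of the 71 genes in 1 library, placed on the vertical axis by its log2(value + 1) minus the mean of that gene over the 2 ctrl libraries; horizontal spread has no meaning and bars are medians. The medians of the Phf8oe libraries lie at 0.24 and 0.34, and most of their points are above 0.

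Among large subunit proteins, 5 of 44 genes rose, 42 lay higher and the median log2 fold change was 0.29. The largest fold change of all 71 was that of Mrpl55, a large subunit protein found only in mitochondria. It stood at 1436 and 1602 in ctrl against 2303 and 2298 in Phf8oe, so the groups stood well apart and the Phf8oe libraries nearly coincided. That is a log2 fold change of 0.60 ± 0.11 (SE), or 1.52-fold, with an adjusted p of 0.015 (limma), and it was the 1 member to reach 1.5-fold. In RefSeq the Mrpl55 gene overlaps 81 bases of Guk1, whose own log2 fold change was 0.20 (adjusted p = 0.257), and no source used here says whether strand was used in counting.

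Mrpl23 is the homologue of bacterial L23, which lies at the mouth of the tunnel through which the new chain leaves the ribosome. It stood at 1462 and 1631 in ctrl and at 2277 and 2138 in Phf8oe, without overlap, and rose 1.43-fold (log2 0.51 ± 0.11 SE, adjusted p = 0.0278, limma). Mrpl48 and Mrpl38 are mitochondria-specific proteins of the central protuberance, the part of the large subunit that faces the small one. Mrpl48 stood at 1557 and 1682 in ctrl and at 2247 and 2241 in Phf8oe and rose 1.39-fold (adjusted p = 0.031). Mrpl38 stood at 2139 and 2117 in ctrl and at 2808 and 2959 in Phf8oe and rose 1.35-fold (adjusted p = 0.0331). In both genes the ctrl replicates differed far less from each other than from either Phf8oe library. Mrps18a carries a small subunit name but is a paralogue of S18 that sits in the large subunit. Its values of 1744 and 1904 in ctrl and 2370 and 2539 in Phf8oe did not overlap, and it rose 1.35-fold (adjusted p = 0.0437). It passed in 9 of 16 alternative settings of the fit, and not without Phf8oe replicate 2.

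Several large subunit genes came close without passing. Mrpl54 had the smallest adjusted p of the 60 genes not called, at 0.0511 (limma). It stood at 2936 and 3022 in ctrl against 3750 and 3972 in Phf8oe, a log2 fold change of 0.37 ± 0.10 (SE) with no overlap. Mrpl34 had the highest log2 fold change among those not called, 0.45 (adjusted p = 0.0634), with 981 and 1190 in ctrl against 1424 and 1538 in Phf8oe. Mrpl45, which lies where the ribosome meets the inner membrane, stood at 2192 and 2610 in ctrl against 2916 and 3155 in Phf8oe (log2 0.34, adjusted p = 0.103). Mrpl58, a relative of the release factors that frees chains from stalled ribosomes, stood at 969 and 1103 in ctrl against 1300 and 1342 in Phf8oe (log2 0.35, adjusted p = 0.0989). None of these 4 had overlapping groups, but in Mrpl45 the ctrl replicates lay further apart than the nearest libraries of the groups did.

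Mrpl12, the stalk protein that recruits translation factors and also binds the mitochondrial RNA polymerase, had Phf8oe replicates that lay far apart. It stood at 2713 and 2822 in ctrl, at 3003 in Phf8oe replicate 1 and at 3796 in Phf8oe replicate 2. The log2 fold change of 0.29 (adjusted p = 0.186, limma) was 0.46 without Phf8oe replicate 1 and 0.12 at its lowest with a library left out. Mrpl17 stood at 3251 and 3305 in ctrl and 3664 and 3854 in Phf8oe, and Mrpl37 at 2667 and 2651 in ctrl and 3140 and 3359 in Phf8oe. Neither passed, with adjusted p-values of 0.23 and 0.104, though the groups of both stood apart. Mrps30, which in mammals sits in the large subunit in spite of its name, stood at 1513 and 1485 in ctrl against 1579 and 1807 in Phf8oe (log2 0.17, adjusted p = 0.368).

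At the low end, 2 large subunit genes lay slightly lower. Mrpl44, whose fold resembles that of a ribonuclease III, stood at 795 and 812 in ctrl and at 757 and 813 in Phf8oe, which overlap (log2 -0.03, 95% interval -0.31 to 0.24). Mrpl47, the homologue of bacterial L29, stood at 614 and 539 in ctrl and at 528 and 569 in Phf8oe, also overlapping (log2 -0.07, 95% interval -0.39 to 0.26). Both intervals end just below the median of the 71 genes, 0.28, and the difference of these 2 genes from the others was not tested. Mrpl39 and Mrpl32 had low values in all libraries: Mrpl39 stood at 477 and 474 in ctrl and 518 and 530 in Phf8oe, and Mrpl32 at 493 and 512 against 549 and 603, with log2 fold changes of 0.14 and 0.20.

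**Figure D2:**
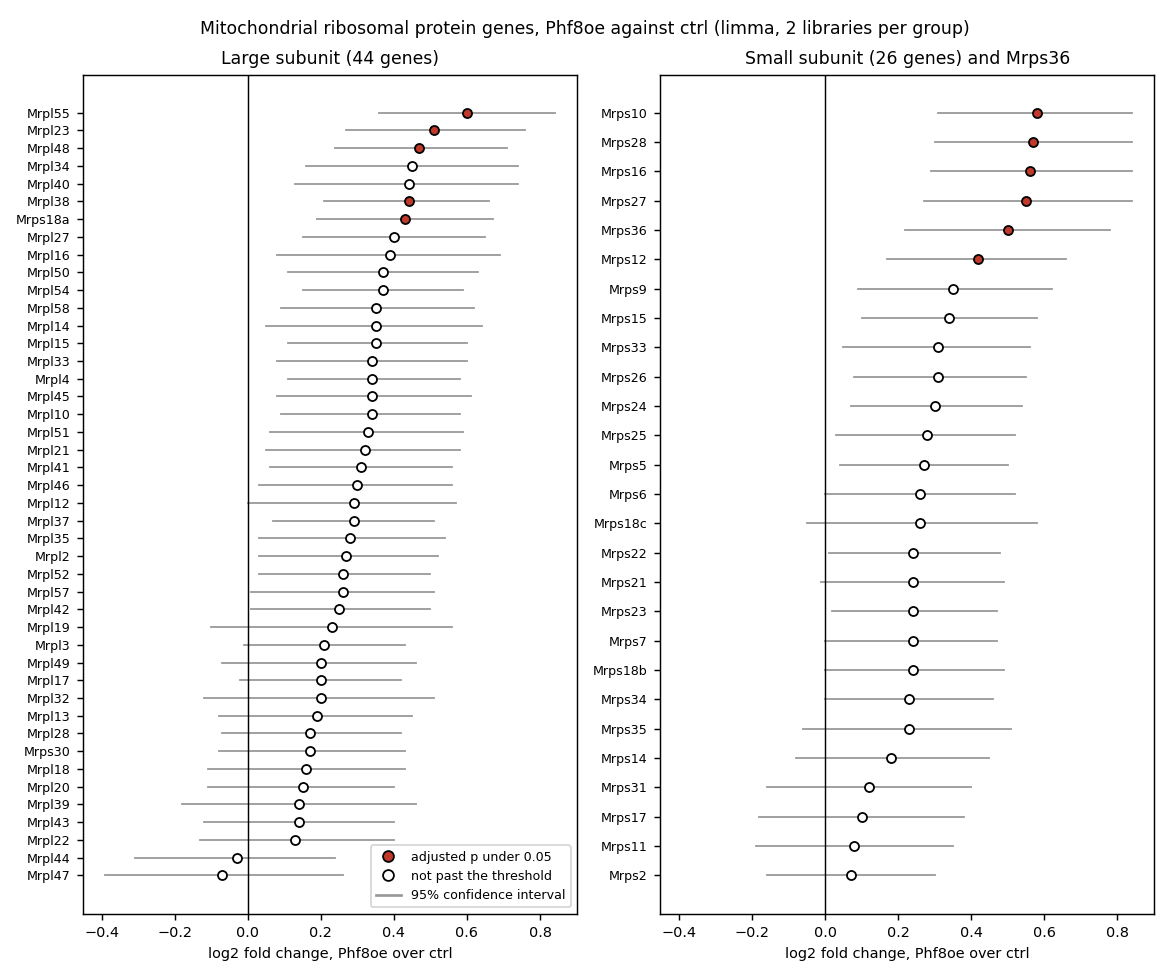
Each row is 1 gene; the point is its log2 fold change of Phf8oe over ctrl, the line its 95% confidence interval from limma, and filled points passed an adjusted p of 0.05. Large subunit genes run from -0.07 to 0.60 and small subunit genes from 0.07 to 0.58, with 69 of 71 points to the right of 0.

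Among small subunit proteins, 5 of 26 genes rose, all 26 lay higher, and the median log2 fold change was 0.26. Mrps10, homologue of the bacterial S10 in the head of the subunit, stood at 758 and 753 in ctrl and at 1114 and 1140 in Phf8oe. It rose 1.49-fold (log2 0.58 ± 0.12 SE, adjusted p = 0.0229, limma), and with any 1 library left out its log2 fold change stayed between 0.56 and 0.59. Mrps28, which stands in the place of bacterial S1, stood at 739 and 799 in ctrl and at 1139 and 1145 in Phf8oe and also rose 1.49-fold (adjusted p = 0.0256). Mrps16, the homologue of S16, stood at 633 and 688 in ctrl and at 982 and 971 in Phf8oe and rose 1.48-fold (adjusted p = 0.0296). In these 3 genes the replicates of each group differed by far less than the groups did.

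Mrps27, a mitochondria-specific protein with pentatricopeptide repeats, a fold that binds RNA, stood at 1294 and 1557 in ctrl and at 1960 and 2219 in Phf8oe. It rose 1.47-fold (log2 0.55 ± 0.13 SE, adjusted p = 0.0341, limma) with the largest standard error of the genes that rose, and its log2 fold change ran from 0.42 to 0.69 with 1 library left out. Mrps12, homologue of the S12 that monitors codon pairing at the decoding centre, stood at 1212 and 1274 in ctrl and at 1636 and 1681 in Phf8oe. It rose 1.33-fold with an adjusted p of 0.049, just inside the threshold, and left it when libraries were scaled by their totals (0.0573). It passed in 9 of 16 alternative settings, and not without Phf8oe replicate 2. Mrps36 is named as a small subunit protein but is now placed in the 2-oxoglutarate dehydrogenase complex of the citric acid cycle. It stood at 1242 and 1216 in ctrl and at 1585 and 1906 in Phf8oe and rose 1.41-fold (adjusted p = 0.0418). It passed in 10 of 16 alternative settings, and not without Phf8oe replicate 2.

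**Figure D3:**
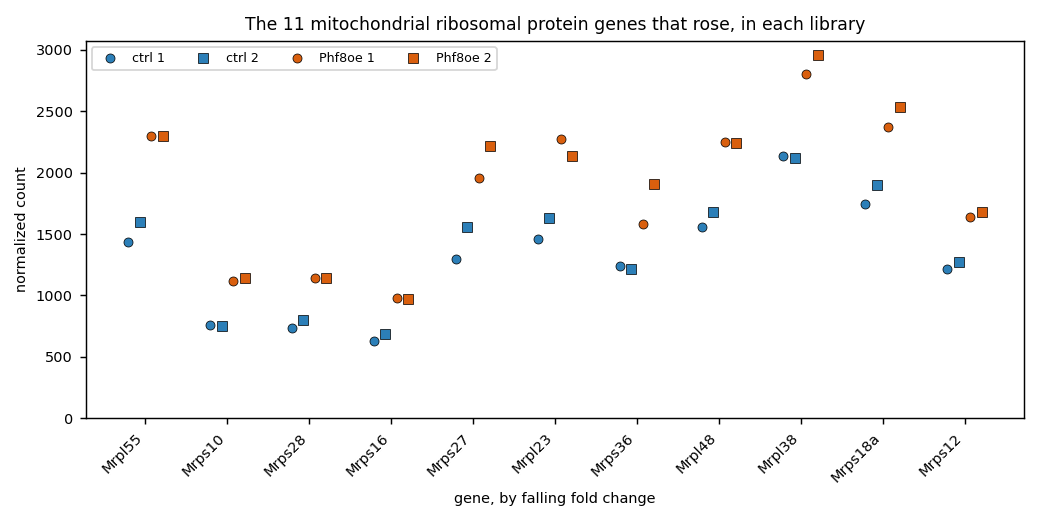
Normalized count, from 0, of the 11 genes that rose, in each of the 4 libraries, with circles for replicate 1 and squares for replicate 2 of each group. In all 11 both Phf8oe values lie above both ctrl values, from Mrpl55 at 2303 and 2298 against 1436 and 1602 to Mrps12 at 1636 and 1681 against 1212 and 1274.

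The other small subunit genes lay higher without passing. The paralogues of S18 that remain in the small subunit were Mrps18b, at 2172 and 2007 in ctrl and 2340 and 2607 in Phf8oe, and Mrps18c, at 464 and 493 in ctrl and 559 and 589 in Phf8oe. Their log2 fold changes were 0.24 and 0.26 (adjusted p = 0.195 and 0.269, limma), against 0.43 for Mrps18a, and the differences between the 3 were not tested. Mrps6 stood at 2867 and 2606 in ctrl against 3032 and 3543 in Phf8oe (log2 0.26, adjusted p = 0.185). At the low end were Mrps17 (log2 0.10), Mrps11 (0.08) and Mrps2 (0.07). Mrps11 stood at 1654 and 1383 in ctrl and at 1595 and 1600 in Phf8oe, and Mrps2 at 2793 and 2633 against 2758 and 2941, and the groups of all 3 overlapped. The remaining genes with overlapping groups were Mrpl13, Mrpl19 and Mrpl43, with log2 fold changes of 0.19, 0.23 and 0.14.

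The medians were close across classes of descent. The 24 large subunit genes with a bacterial homologue had a median log2 fold change of 0.28 with 2 called, and the 19 found only in mitochondria 0.30 with 3 called. In the small subunit the 17 with a homologue had a median of 0.26 with 4 called, and the 9 found only in mitochondria 0.24 with 1 called. No test was made between these classes. By size of effect, 1 gene lay at least 1.5-fold higher, 63 between 1.1-fold and 1.5-fold, and 7 within 1.1-fold of no change. The gene table also holds 3 lower-case names, mrpl9, mrpl11 and mrpl24, which the name rule did not take, with log2 fold changes of 0.20, 0.12 and 0.28 and none called.

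Of 5 ribosome subunits known under other names, 1 rose (20%), Chchd1, all 5 lay higher, and the median was 0.19 on the log2 scale. Over all tested genes 2.99% were called higher and 50.4% lay higher. Chchd1, a small subunit protein, stood at 902 and 979 in ctrl against 1263 and 1294 in Phf8oe (log2 0.44, adjusted p = 0.0496, limma). Of 26 genes that assemble the mitochondrial ribosome 1 rose (3.85%, near the share of all tested genes) and 0 fell. Of the 26, 22 lay higher, and the median was 0.26. The gene that rose was Noa1, a GTPase needed for mitochondrial translation, at 1999 and 1968 in ctrl against 2634 and 2570 in Phf8oe (log2 0.39, adjusted p = 0.0465). Of 19 genes that charge mitochondrial transfer RNAs 1 rose (5.26%), all 19 lay higher, and the median was 0.25. That gene was Tars2, the threonyl-tRNA synthetase, at 3149 and 3374 in ctrl against 4494 and 4150 in Phf8oe (log2 0.41, adjusted p = 0.0439). These 3 calls were each lost with either ctrl library left out, as for the members.

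Fold changes of the soluble translation factors were smaller in the median. Of 13 tested 0 passed in limma and 0 in limma-voom, with 1 higher at an unadjusted p under 0.05, and the median was 0.12. Over all 14368 tested genes, 1826 lay higher and 1952 lower at an unadjusted p under 0.05. Tufm, the elongation factor that carries charged transfer RNA to the ribosome, had a log2 fold change of 0.20, and Gfm1, which moves the ribosome along, 0.12. Of 15 genes for mitochondrial transcription and RNA handling 0 passed in either tool, 5 lay higher at an unadjusted p under 0.05, and the median was 0.12. Elac2, which trims the ends of transfer RNAs, stood at 5795 and 5797 in ctrl against 7295 and 7292 in Phf8oe (log2 0.33, adjusted p = 0.0634), and Lrpprc, which stabilizes mitochondrial messages, had a log2 fold change of 0.18. Of 12 genes that insert or control the finished proteins the median was 0.26, and 1 rose (8.33%, against 2.99% of all tested genes). It was Oxa1l, the insertase that takes the new chain from the ribosome into the inner membrane, at 3735 and 4047 in ctrl against 5378 and 5254 in Phf8oe (log2 0.45, adjusted p = 0.0296).

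The messages that the mitochondrial ribosome translates had a larger median fold change than the genes for its proteins, a difference that was not tested. Of the 13 mitochondrially encoded proteins 9 rose (69.2%, against 2.99% of all tested genes) and 0 fell. All 13 lay higher, and log2 fold changes ran from 0.28 to 0.57 with a median of 0.51. Mt-nd6, a complex I subunit, stood at 14458 and 15252 in ctrl against 22727 and 21169 in Phf8oe (log2 0.56, adjusted p = 0.0159, limma), and the groups were far apart. Mt-atp8, Mt-nd5 and Mt-nd3 rose with log2 fold changes of 0.57, 0.52 and 0.49. In contrast to the ribosomal protein genes, their summed share of the library was higher in Phf8oe replicate 1, at 5.34%, than in Phf8oe replicate 2, at 4.76%, against 3.68% and 3.62% in ctrl. These transcripts come from a few long precursors and are not independent of each other, and reads from neighbours that overlap cannot be told apart. With either ctrl library left out 0 of the 13 passed.

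The cytosolic ribosomal protein genes, taken by name as 76 rows, are the closest other group in kind. Of these 19 rose (25%, against 2.99% of all tested genes) and 0 fell. Of the 76, 73 lay higher, and the median log2 fold change was 0.37 against 0.28 for the mitochondrial set. Rps20 had the smallest p among them, with 6621 and 6983 in ctrl against 10198 and 10921 in Phf8oe, and the difference between the sets was not tested. Some of the 76 rows had low values and were not called. Examples are Rpl35a (17 and 13 in ctrl, 25 and 17 in Phf8oe) and Rps19 (18 and 24, 31 and 30). The 3 rows that lay lower were Rplp2 (46 and 52, 35 and 54), Rpl39 (84 and 74, 58 and 95) and Rpl7l1. Of 12 genes for regulators of nuclear genes with mitochondrial products, such as NRF1, the ETS factor GABP and the coactivators of the PGC-1 family, 0 passed in limma or limma-voom. At an unadjusted p under 0.05, 2 lay lower and 0 higher, against 1952 lower and 1826 higher of all 14368 tested genes. The median was -0.14 with 9 of 12 lower. Myc and Hcfc1 had log2 fold changes of 0.08 and -0.14. Gabpa, the DNA-binding subunit of GABP, stood at 1805 and 1962 in ctrl against 1458 and 1676 in Phf8oe (log2 -0.27), and Nrf1 at 1176 and 1013 against 979 and 1010 (log2 -0.13).

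**Figure D4:**
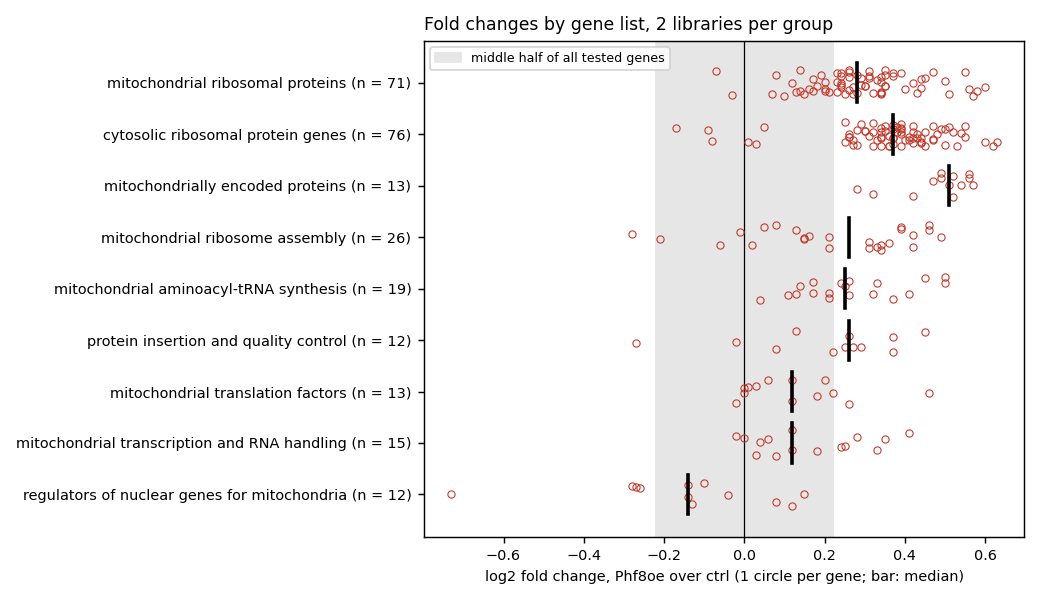
Log2 fold change of Phf8oe over ctrl for each gene of 9 lists, 1 circle per gene, with bars at the medians and a grey band over the interquartile range of all tested genes, from -0.22 to 0.22. The median of the 71 mitochondrial ribosomal protein genes, 0.28, lies right of the band, that of the regulators, -0.14, inside it and left of 0.

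Some properties that the name rule did not use are shared. The members are short genes: in RefSeq on GRCr8 their median span from first to last base is 6.81 kb, against 25 kb for the 12548 tested genes that were matched. Fold changes went with span over all genes, with a median log2 fold change of 0.09 in the 2510 genes of shortest span, up to 8.17 kb, and of -0.13 in the 2510 of longest span. The members in that shortest class, 40 of the 71, had a median of 0.27. The 19 in the next class had 0.31, where the median of all genes was 0.05. Counted from the shortest, the 7 members in class 3 had a median of 0.23, the 4 in class 4 had 0.41 and the 1 in class 5 had 0.57. Over all genes the medians of these classes were 0.01, -0.04 and -0.13. The part of span in the members' values was not tested further. Of the members 12 overlap another tested gene in RefSeq, among them 2 that rose, Mrpl55 and Mrpl48, the latter by 2 bases of Rab6a. RefSeq also names 40 pseudogenes of members, to or from which reads could have been assigned, and this was not tested.

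RefSeq promoters were matched for 57 of the 71 genes, and the 250 bases before the start were searched in these and in 10309 tested coding genes. The ETS motif CCGGAAG was in 11 of the 57 (19.3%) and in 14.8% of the tested genes, beginning 9 to 139 bases before the start in the members. The NRF1 motif GCATGCG was in 6 (10.5%) against 5.67%, and either of these was in 17 (29.8%) against 19.4%. The YY1 motif AAGATGG was in 4 (7.02%) against 4.25%, CCAAT in 24 (42.1%) against 35.6%, the Sp1 motif GGGCGG in 26 (45.6%) against 58.9%, and CACGTG in 2 (3.51%) against 8.05%. Of the 8 genes that rose and have a promoter here, 4 hold the ETS motif, namely the 4 shown above, and of the 49 that were not called 7 do. The 8 and the 49 were split by the same values that made the calls, and no test was made. No NRF1 motif was found in the 8. The member promoters have a median GC content of 54.4%, against 60.4% over the tested genes, and 15 of the 57 hold none of the 6 motifs. A match is a description of the letters and not evidence of binding.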

How the data were processed

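RNA-seq was run on 4 libraries of total RNA, 2 ctrl and 2 Phf8oe, with paired reads of 150 bases per the labels. The submitters' processing notes name STAR 2.5.2b, DESeq2, Trimmomatic 0.36 and bcl2fastq 2.20, and the rat builds rn6 and Rnor_6.0. Not given in the sources used here were the counter, annotation release, use of strand and gene filter. Although the labels call them raw, the deposited values are a signal of scaled counts: they fall on steps of 0.8445 and 1.0176 per read in ctrl replicates 1 and 2 and of 0.9548 and 1.4159 in Phf8oe replicates 1 and 2, which gave the estimated reads. Count models were therefore not used.

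The test was limma (3.58.1, under R 4.3.3) applied to log2(value + 1), which slightly understates the change of low genes, for 14368 of 14410 genes with at least 10 in at least 2 libraries. Empirical Bayes moderation followed the mean level and was robust, with 2 residual degrees of freedom and 6.99 prior ones in the median gene. All p-values are two-sided, with the group as the one term and Benjamini-Hochberg adjustment over all tested genes at 0.05. The procedure was tested on simulated data with changes of at least 1.5-fold, a size that 1 of the 71 members reached. Smaller changes were not simulated. An exact permutation test of 2 against 2 libraries cannot go below 0.333 and was not used. Levels were not compared between genes, since transcript lengths were not used here.

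The members and lists were chosen with earlier results of these data known. Named were the members past the threshold, the 5 highest and 5 lowest fold changes, the 5 highest and 3 lowest means and 10 members picked for their role; of other lists, up to 4 genes past the threshold or the 2 of highest mean. Mrpl34, Mrpl13, Mrpl19, Mrpl40, Mrpl43, Mrpl46, Gabpa, Nrf1 and genes next to members were named after their values were seen. Mrpl47 was counted with the homologues of bacterial proteins, since it is the L29 homologue, although the classes as first written put it elsewhere. Promoters are the first RefSeq entry of each gene on GRCr8, a build other than that of the counts. Alternatives covered the replicate numbers, scaling, limma-voom, pseudocount, filter, moderation and leaving out each library. Scripts ran in Python 3.11.15 with pandas 2.3.3, numpy 2.4.6 and matplotlib 3.10.9.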

Additional observations from a re-analysis of the deposited data

How the results depend on the processing

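Of 71 members, 11 rose in the fit reported. Counts of members that rose were 9, 13 and 11 with scaling by the total, the upper quartile and trimmed means, 12 with limma-voom, 11 at pseudocounts of 0.5 and 5 and without a filter, 12 with a minimum of 50, 7 without robust moderation and 0 without the variance trend. Leaving out 1 library gave 0 to 20 members and a median log2 fold change of 0.24 to 0.34, and the count of all genes, 1098, became 14 to 2103, or 0 without the trend. In no setting run did a member fall. Each of the 11 genes that rose passed in 9 to 12 of 16 alternatives, which include the crossed pairing described below. For the named members, 420 alternative values were compared with the fit reported. Of these, 357 had the same direction and the same side of the threshold. The 53 that no longer passed were all of the 11 genes that rose, the only ones that could. A further 5 newly passed, and 5 were of opposite sign. The last were of genes that did not pass: the log2 fold change of Mrpl44 was 0.01 with upper quartile scaling, and with 1 library left out the values ran from -0.09 to 0.02 for Mrpl44, -0.16 to 0.02 for Mrpl47, -0.05 to 0.21 for Mrps11 and -0.01 to 0.21 for Mrps17.

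With the replicate number as a block (replicate block), 0 members and 373 of all genes passed. Same-numbered libraries did not deviate together (correlation -0.126) and the labels do not tie the numbers, so they were not taken as pairs. The crossed pairing, added after seeing the data, called 19 members and 2354 genes.

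For the other lists, the count of genes that rose was 0 with the block for assembly, charging of transfer RNA, protein insertion and subunits under other names, 1 for mitochondrially encoded proteins and 2 for cytosolic ribosomal proteins. The crossed pairing gave 5 for assembly, 4 for charging, 3 for insertion, 3 for transcription, 1 for translation factors and 36 for cytosolic ribosomal proteins. Over all 14368 tested genes the block called 65 higher and the crossed pairing 1056, against 430 in the fit reported. Upper quartile scaling gave 2, 3, 3, 1 and 34 for assembly, charging, insertion, transcription and cytosolic ribosomal proteins. It called 608 of all tested genes higher. Scaling by the total gave 0 for assembly and, like trimmed means, 0 for subunits under other names. Without robust moderation the counts were 0 for those subunits, assembly and charging, 4 for mitochondrially encoded and 7 for cytosolic ribosomal proteins, and without the trend 0 for each list. Leaving out 1 library gave 0 to 1 for subunits under other names, translation factors and transcription, 0 to 2 for assembly and charging, 0 to 4 for insertion, 0 to 11 for mitochondrially encoded and 0 to 40 for cytosolic ribosomal proteins. Where calls were lost or gained the cause was not tested. The smallest fold change of a member that passed was 1.33, that of Mrps12. Mrpl34 at 1.37-fold, Mrpl40 at 1.35-fold and Mrpl54 at 1.3-fold did not pass.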

Other observations

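Many members share their start region with another gene. Of the 57 with a promoter, 16 (28.1%) have the start of a coding gene on the opposite strand within 1000 bases, against 11.5% of tested coding genes. Of these 16, Mrps27 rose, and its neighbour Ptcd2, a mitochondrial RNA-binding protein, had a log2 fold change of 0.21 that did not pass (limma, adjusted p = 0.446). Mrps11 and Mrpl46 face each other, with log2 fold changes of 0.08 and 0.30, and neither passed. Apart from such pairs of members, 13 neighbours were tested: 7 lay higher and 6 lower or at 0, with a median log2 fold change of 0.06 against 0.28 for the members. In limma 0 of the 13 passed, 0 had an unadjusted p under 0.05, and limma-voom called 0. The histone chaperone gene Hira, next to Mrpl40, had a log2 fold change of -0.25, and the helicase gene Helq, next to Mrps18c, -0.29, where Mrpl40 had 0.44 and Mrps18c 0.26. The difference between members and neighbours was not tested.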
